A study of Homo sapiens with 12 samples.

Results

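The miR-15/16 family was followed through 6 microRNA strands listed by name: hsa-miR-15a-5p, hsa-miR-15b-5p, hsa-miR-16-5p, hsa-miR-16-2-3p, hsa-miR-195-5p and hsa-miR-497-5p. All 6 were present in both of the authors' deposited tables, which together hold 952 microRNAs. The libraries were small-RNA libraries of K562, a human erythroleukaemia cell line, with 12 libraries in 4 groups of 3. The tested lines were K562 that had received the guide labelled sgCYRANO, named for the long non-coding RNA CYRANO, and K562 of genotype ZSWIM8-/- (ZSWIM8 KO). Their counterparts were K562 with a guide of genotype label sgNT and wild-type K562 without a guide (WT). The labels name no guide for the ZSWIM8 KO line and do not say whether a line was 1 clone or a pool of cells. The series concerns target-directed microRNA decay, in which an extensively paired target RNA brings about the loss of the microRNA bound to it, with the ZSWIM8 ubiquitin ligase as a required factor. CYRANO is the known decay-inducing target of miR-7.

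Members of this family share the bases through which a microRNA recognises most of its targets, called the seed, and they are known as restraints on the cell cycle and on survival genes such as BCL2. Loss of the miR-15a and miR-16-1 locus is a frequent lesion of chronic lymphocytic leukaemia. A microRNA hairpin gives a 5p and a 3p strand, of which 1 is usually loaded and kept as the guide while the other, the passenger, is mostly degraded. In this family the 5p strands are the usual guides, and miR-16-2-3p is the strand opposite miR-16-5p in 1 of its hairpins.

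The mature sequences, from RefSeq on GRCh38.p14, are shown 5′ to 3′ with the seed (bases 2 to 8) in capitals, because the 5p members share 1 seed while the 3p strands do not share it. All measured strands of the family hairpins are listed.
miR-16-5p: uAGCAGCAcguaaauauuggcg
miR-15b-5p: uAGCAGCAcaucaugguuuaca
miR-15a-5p: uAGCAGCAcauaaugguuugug
miR-195-5p: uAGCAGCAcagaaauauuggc
miR-497-5p: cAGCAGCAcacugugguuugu
miR-16-2-3p: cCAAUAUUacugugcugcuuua
miR-195-3p: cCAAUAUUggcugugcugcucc
miR-16-1-3p: cCAGUAUUaacugugcugcuga
miR-15b-3p: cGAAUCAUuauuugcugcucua
The seed AGCAGCA was found in 7 annotated human microRNAs, of which 6 were in each table: the 5 members and miR-424-5p. The first 9 bases were identical in miR-15a-5p, miR-15b-5p, miR-16-5p and miR-195-5p, and miR-16-5p and miR-195-5p differed at 2 of 21 positions. miR-16-2-3p has another seed, CAAUAUU, which it shares with miR-195-3p alone among the annotated microRNAs. These 2 strands are identical over their first 8 bases. How reads shared between such near-identical strands were assigned is not stated in any source used, so the split between miR-16-5p and miR-195-5p is uncertain.

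The hairpins lie in pairs, and miR-16-5p is made at 2 places. MIR15A (chr13:50049119-50049201) and MIR16-1 (chr13:50048973-50049061) lie 57 bases apart on the - strand of chromosome 13 within the non-coding gene DLEU2, where MIR16-1 is intronic and MIR15A overlaps an annotated exon. MIR15B (chr3:160404588-160404685) and MIR16-2 (chr3:160404745-160404825) lie 59 bases apart on the + strand of chromosome 3 in introns of SMC4, which encodes a condensin subunit. MIR195 (chr17:7017615-7017701) and MIR497 (chr17:7017911-7018022) lie 209 bases apart on the - strand of chromosome 17 and overlap exons of their host transcript, MIR497HG. The hairpins of miR-16 are printed with both mature strands in capitals, since they give the same 5p strand but different 3p strands.
MIR16-2: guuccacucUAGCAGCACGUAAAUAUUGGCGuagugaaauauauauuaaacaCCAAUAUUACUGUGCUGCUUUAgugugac
MIR16-1: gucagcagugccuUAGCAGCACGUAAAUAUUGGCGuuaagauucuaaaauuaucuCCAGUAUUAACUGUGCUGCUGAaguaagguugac
Reads of miR-16-5p therefore cannot be told apart by locus, whereas miR-16-2-3p comes from chromosome 3 and miR-16-1-3p from chromosome 13.

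The values came from tables of the edgeR tests that the authors ran and deposited, 1 for sgCYRANO against sgNT (837 microRNAs) and 1 for ZSWIM8 KO against WT (868 microRNAs). The tables give no single-library values, so each level below is a group mean in counts per 1000000 reads (CPM) recovered from the deposited columns, and the overlap of libraries could not be examined. The headers name no numerator. Fold changes were read as sgCYRANO over sgNT and ZSWIM8 KO over WT, and turned, each pair of group means would change places. Library totals read from the smallest CPM steps were 1670000 to 1850000 in sgCYRANO, 1540000 to 2300000 in sgNT, 2090000 to 2490000 in ZSWIM8 KO and 860000 to 1850000 in WT. Each ± gives a standard error worked back from the deposited p-value. As a check of the cell type, the erythroid miR-451a, miR-144-3p and miR-486-5p and the myeloid miR-223-3p were measured in all groups, with miR-486-5p at 12031, 11701, 13387 and 14449 CPM in sgCYRANO, sgNT, ZSWIM8 KO and WT. miR-122-5p of liver and miR-1-3p of muscle did not exceed 2.08 CPM in any group, and neither neuronal miR-124-3p nor lymphocyte miR-150-5p was in either table. Read in the direction taken here, the known substrate miR-7-5p rose 5.72-fold in sgCYRANO and 5.09-fold in ZSWIM8 KO. A rise is the direction that loss of its decay would give, and with the signs turned it would have fallen in both.

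Together the 6 strands made up 0.254% of all CPM in sgCYRANO and 0.254% in sgNT, 0.221% in ZSWIM8 KO and 0.257% in WT. hsa-miR-16-5p was the most abundant of them in every group. It had 1165 CPM in sgCYRANO and 1213 CPM in sgNT, and 1112 CPM in ZSWIM8 KO and 1132 CPM in WT. It stood at rank 51 of 837 and rank 52 of 868 by abundance, and its share of the summed 5p members was between 75.5% in ZSWIM8 KO and 78.7% in sgCYRANO. All measured strands of the family hairpins are 21 or 22 bases long and each read counts 1 strand. Their CPM values are therefore on a like scale by length. Ligation to adapters can favour some ends over others and was not measured here. How reads of miR-16-5p, which match both of its loci, were counted is not stated in any source used. Its level beside strands of 1 locus, and its share, are therefore uncertain.

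The order of the other 5p strands was the same in all 4 groups. hsa-miR-15b-5p, encoded next to MIR16-2, had 270.6 CPM in sgCYRANO and 293.9 CPM in sgNT, and 304.9 CPM in ZSWIM8 KO and 287.4 CPM in WT. hsa-miR-15a-5p, encoded next to MIR16-1, had 30.8 CPM in sgCYRANO and 33.6 CPM in sgNT, and 31.2 CPM in ZSWIM8 KO and 32.0 CPM in WT. The strand from the chromosome 3 pair was thus 8.77 and 8.76 times as abundant as its chromosome 13 counterpart in sgCYRANO and sgNT, and 9.77 and 8.99 times in ZSWIM8 KO and WT.

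The chromosome 17 pair was scarce. hsa-miR-195-5p had 11.3 CPM in sgCYRANO and 12.3 CPM in sgNT, and 16.8 CPM in ZSWIM8 KO and 13.2 CPM in WT. hsa-miR-497-5p was the lowest of the family, with 3.20 CPM in sgCYRANO and 5.55 CPM in sgNT, and 8.28 CPM in ZSWIM8 KO and 6.21 CPM in WT. These means correspond to about 17 and 30 reads of miR-497-5p in sgCYRANO and sgNT, and about 58 and 24 reads in ZSWIM8 KO and WT, each over 3 libraries. All lay above the limit that 3 counts over a group allow, which was between 0.425 and 0.788 CPM and covers counting error only. With no spread between libraries in the tables, neighbours in this order could not be tested against each other.

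hsa-miR-16-2-3p, the presumed passenger, was counted nearly as often as miR-16-5p, least so in ZSWIM8 KO. How closely these strands match is uncertain, because the counting of miR-16-5p reads, which match both of its loci, is not stated. miR-16-2-3p had 1062 CPM in sgCYRANO and 979.0 CPM in sgNT, and 734.3 CPM in ZSWIM8 KO and 1099 CPM in WT. The lowest of the 4 means was that of ZSWIM8 KO. The 3p strand of the other miR-16 hairpin, miR-16-1-3p, had 9.77 CPM in sgCYRANO and 9.81 CPM in sgNT, and 7.66 CPM in ZSWIM8 KO and 12.04 CPM in WT. The 3p strand of MIR16-2 therefore exceeded that of MIR16-1 by 109 and 99.8 times in sgCYRANO and sgNT, and by 95.9 and 91.3 times in ZSWIM8 KO and WT.

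**Figure D1:**
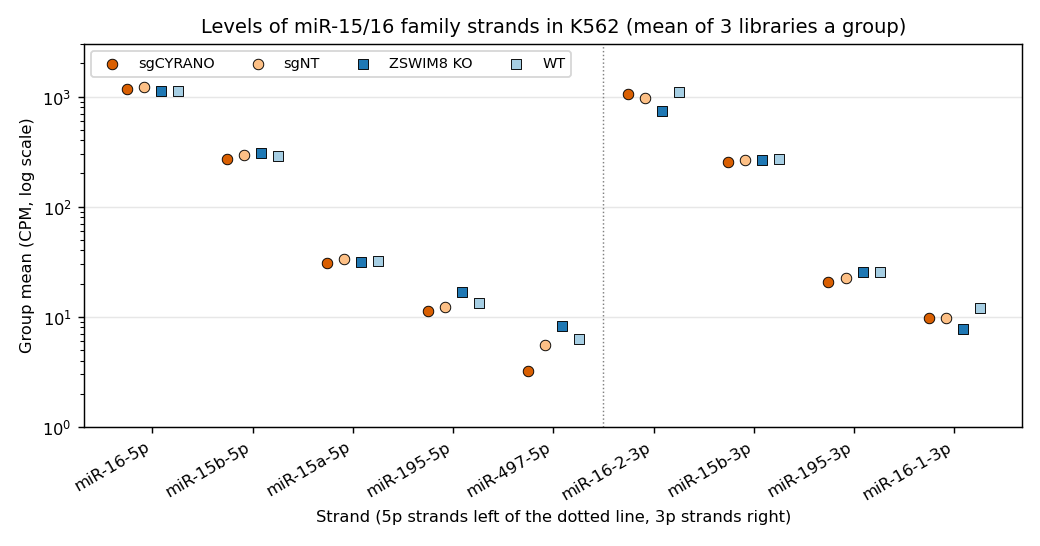
Group means in CPM (log axis) of the 6 members and of the 3 other measured strands of their hairpins, 1 point a group (circles: sgCYRANO and sgNT, squares: ZSWIM8 KO and WT), without error bars because no single-library values were given. Points of 1 strand lie close together in all 4 groups except for miR-16-2-3p, at 734.3 CPM in ZSWIM8 KO and 1099 CPM in WT, and the scarce strands under about 20 CPM.

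The first comparison asked whether the family responds to disruption of CYRANO. Of the 6 members 0 reached an adjusted p under 0.05 by the authors' deposited edgeR test, and 0 had an unadjusted p under 0.05. Of all microRNAs tested there, 0.119% passed, a single one, so a count of 0 in 6 strands is near the share at large. The median log2 fold change of the members was -0.12, beside 0.013 for all microRNAs tested and -0.022 for those at 10 CPM or more.

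The abundant members had narrow intervals around no change. For hsa-miR-16-5p in sgCYRANO over sgNT the authors' deposited table gave a log2 fold change of -0.059 ± 0.10 (adjusted p = 0.984). Its 95% interval on the linear scale ran from 0.841-fold to 1.10-fold. For miR-15b-5p the authors' deposited table gave -0.12 ± 0.12 (adjusted p = 0.980), with an interval from 0.787-fold to 1.08-fold. For miR-16-2-3p the authors' deposited table gave 0.12 ± 0.10 (adjusted p = 0.980), with an interval from 0.947-fold to 1.24-fold. The deposited tests imply 3348, 1810 and 895 denominator degrees of freedom for miR-16-5p, miR-15b-5p and miR-16-2-3p. The 6 libraries in 2 groups leave 4 to 1 strand alone. These intervals therefore do not rest on each strand's own libraries alone.

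The scarce members were measured less closely. In the authors' deposited table miR-15a-5p had -0.12 ± 0.21 and miR-195-5p -0.12 ± 0.34 (both adjusted p = 0.984). The most distant value was that of miR-497-5p, at -0.77 ± 0.56 in the authors' deposited table (adjusted p = 0.980). Its interval, from 0.275-fold to 1.25-fold, rests on the few reads given above, and a change of the size of its point estimate was not detectable at this depth.

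The second comparison asked whether the family responds to loss of ZSWIM8. No label says whether the ZSWIM8 KO libraries came from separately made lines. A difference between the lines themselves therefore cannot be told apart from loss of ZSWIM8, and the p-values measure spread between libraries. One member, miR-16-2-3p, fell to 734.3 CPM in ZSWIM8 KO, against 1099 CPM in WT. In the authors' deposited table its log2 fold change was -0.58 ± 0.13 (adjusted p = 0.000102, edgeR quasi-likelihood test), a change of -33.2% with an interval from 0.563-fold to 0.793-fold. The other 5 members did not pass, and 0 members rose. Of the 4 K562 markers, 3 had higher means in ZSWIM8 KO than in WT beside this fall, with 0 of 4 past the threshold. miR-451a had 956.3 CPM in ZSWIM8 KO and 574.5 CPM in WT (1.66-fold, adjusted p = 0.583 in the authors' deposited table), miR-144-3p had 239.1 and 119.4 CPM in these groups (2.001-fold, adjusted p = 0.364 in the authors' deposited table), and miR-223-3p had 1039 and 844.3 CPM (1.23-fold, adjusted p = 0.0779). The erythroid miR-486-5p was at 0.927-fold. The part of these marker levels in the result for miR-16-2-3p was not tested. Of all microRNAs tested, 9.91% passed, 5.18% lower and 4.72% higher (45 and 41 microRNAs). Centred on the median of microRNAs at 10 CPM or more, 62 were lower and 30 higher, and centred on their trimmed mean 63 were lower and 28 higher. By the deposited counts, 1 call among 6 strands is near the share at large. The median log2 fold change of the members was 0.030, beside 0.080 for all microRNAs tested and 0.13 for those at 10 CPM or more. Relative to that 0.13, miR-16-2-3p stood at -0.71 (adjusted p = 8.21e-07) and miR-16-5p at -0.16 (adjusted p = 0.501), by a normal test of the centred fold changes.

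That fall was moderate among abundant microRNAs. Of 144 microRNAs at 100 CPM or more, 13, or 9.03%, had a log2 fold change as low as that of miR-16-2-3p or lower, itself included. Of the 144, 24 were called lower and 28 higher. Counting error alone was small for this strand, since about 5182 reads in ZSWIM8 KO and 4183 in WT stand behind its means. When F was read with only 4 denominator degrees of freedom, the number that 6 libraries in 2 groups leave to 1 strand alone, the call ended (adjusted p = 0.227), and 1 microRNA was then called higher and 2 lower over all.

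The 5p members stayed close to their WT levels or had wide intervals. For miR-16-5p the authors' deposited table gave a log2 fold change of -0.026 ± 0.11 (adjusted p = 0.943), with an interval from 0.844-fold to 1.14-fold. For miR-15b-5p the authors' deposited table gave 0.085 ± 0.15 (adjusted p = 0.826), with an interval from 0.868-fold to 1.297-fold. The sign of miR-15b-5p turned when fold changes were taken relative to the median of microRNAs at 10 CPM or more. A change of 1.5-fold in either direction lies outside both intervals. These intervals, too, rest on more denominator degrees of freedom (164 implied for each) than the strands' own libraries leave.

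For miR-15a-5p the authors' deposited table gave -0.035 ± 0.30 (adjusted p = 0.964), with an interval from 0.654-fold to 1.46-fold. The chromosome 17 strands had higher means in ZSWIM8 KO than in WT without passing the test. The authors' deposited table gave 0.34 ± 0.37 for miR-195-5p (adjusted p = 0.674) and 0.41 ± 0.45 for miR-497-5p (adjusted p = 0.678). Their intervals reached 2.11-fold and 2.46-fold, so a doubling lies within both.

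**Figure D2:**
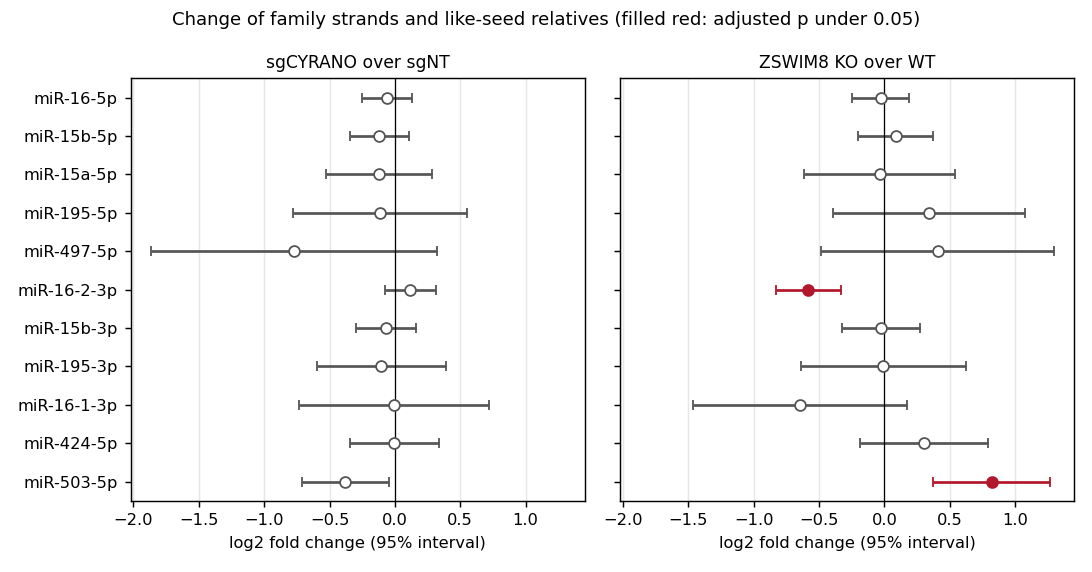
Log2 fold changes with 95% intervals from the deposited p-values for 9 strands of the family hairpins and for miR-424-5p and miR-503-5p, in sgCYRANO over sgNT (left) and ZSWIM8 KO over WT (right); filled red points have an adjusted p under 0.05. On the left no point is filled, and on the right miR-16-2-3p lies at -0.58 and miR-503-5p at 0.82.

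**Figure D3:**
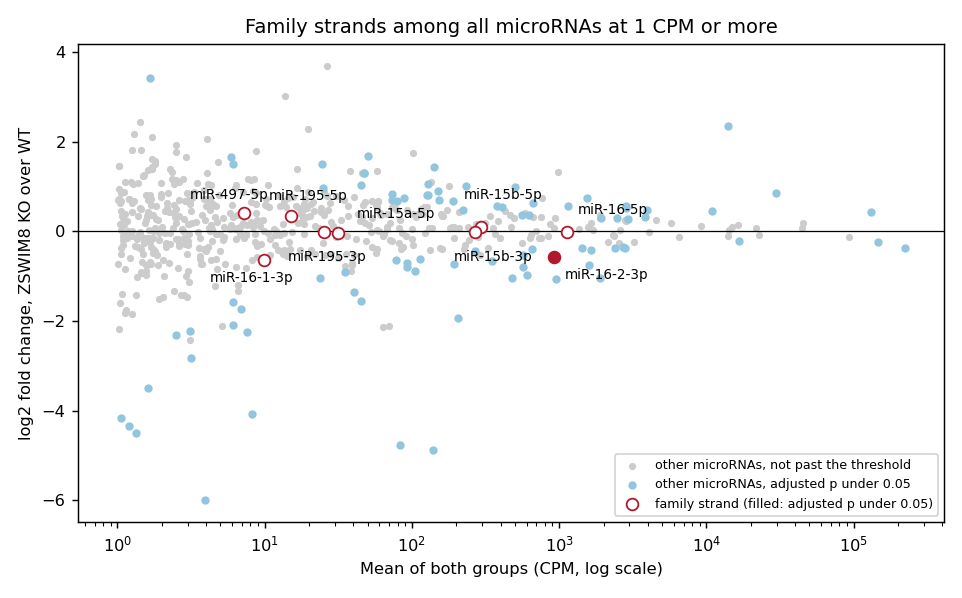
Log2 fold change in ZSWIM8 KO over WT against the mean of both groups in CPM (log axis) for all microRNAs at 1 CPM or more, with the family strands ringed in red and filled where the adjusted p is under 0.05. miR-16-2-3p, at -0.58, lies below miR-16-5p, at -0.026, at a like abundance, while scarce strands lie in a wide cloud.

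The change of miR-16-2-3p was compared with that of its relatives, since strands of 1 hairpin come from the same precursor. In ZSWIM8 KO over WT, miR-16-5p minus miR-16-2-3p was 0.56 ± 0.17 on the log2 scale (normal test of the difference of the deposited fold changes, adjusted p = 0.0204 over 193 hairpins). Over those hairpins 5.18% passed, 3.11% with the 5p strand and 2.07% with the 3p strand as the higher of the pair. The ratio of the 3p to the 5p strand was 0.661 in ZSWIM8 KO and 0.971 in WT. In sgCYRANO over sgNT the same arm difference was -0.18 ± 0.14 (adjusted p = 0.955 over 185 hairpins, of which 0.541% passed), with ratios of 0.912 in sgCYRANO and 0.807 in sgNT. Because miR-16-5p also comes from MIR16-1, this is no difference within 1 hairpin alone. For the same reason the ratios are uncertain, as the counting of reads that match both loci is not stated. The test treats both strands as independent, although they were measured in the same libraries.

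The neighbouring hairpin MIR15B showed no such difference between its strands. miR-15b-3p had 265.7 CPM in ZSWIM8 KO and 270.6 CPM in WT, and 253.6 CPM in sgCYRANO and 266.5 CPM in sgNT. The authors' deposited table gave -0.026 ± 0.15 in ZSWIM8 KO over WT (adjusted p = 0.951), and miR-15b-5p minus miR-15b-3p was 0.11 ± 0.21 (normal test, adjusted p = 0.965). The 3p strand stood at 0.871 times the 5p strand in ZSWIM8 KO and 0.942 times in WT.

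In MIR195, on chromosome 17, the 3p strand was counted more often than the 5p strand, while of MIR497 only the 5p strand was measured. The order in MIR195 is uncertain, because the split of reads between miR-16-5p and miR-195-5p is not known. miR-195-3p, which has the seed of miR-16-2-3p, had 25.2 CPM in ZSWIM8 KO and 25.4 CPM in WT, and 20.8 CPM in sgCYRANO and 22.3 CPM in sgNT. The authors' deposited table gave -0.0094 ± 0.32 in ZSWIM8 KO over WT (adjusted p = 0.991). miR-16-2-3p minus miR-195-3p was -0.57 ± 0.35 in that comparison (normal test, adjusted p = 0.357 over 36 pairs of family strands), with an interval from -1.25 to 0.11. A difference between these strands of shared seed was therefore not shown, nor was their likeness.

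The passenger of the other miR-16 hairpin had a similar point estimate. For miR-16-1-3p the authors' deposited table gave -0.64 ± 0.42 in ZSWIM8 KO over WT (adjusted p = 0.423), on about 54 reads in ZSWIM8 KO and 46 in WT. miR-16-2-3p minus miR-16-1-3p was 0.063 ± 0.44 on the log2 scale (normal test, adjusted p = 0.99997 over 36 pairs), with an interval from -0.79 to 0.92. In sgCYRANO over sgNT the authors' deposited table gave -0.0063 ± 0.37 for miR-16-1-3p (adjusted p = 0.996).

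**Figure D4:**
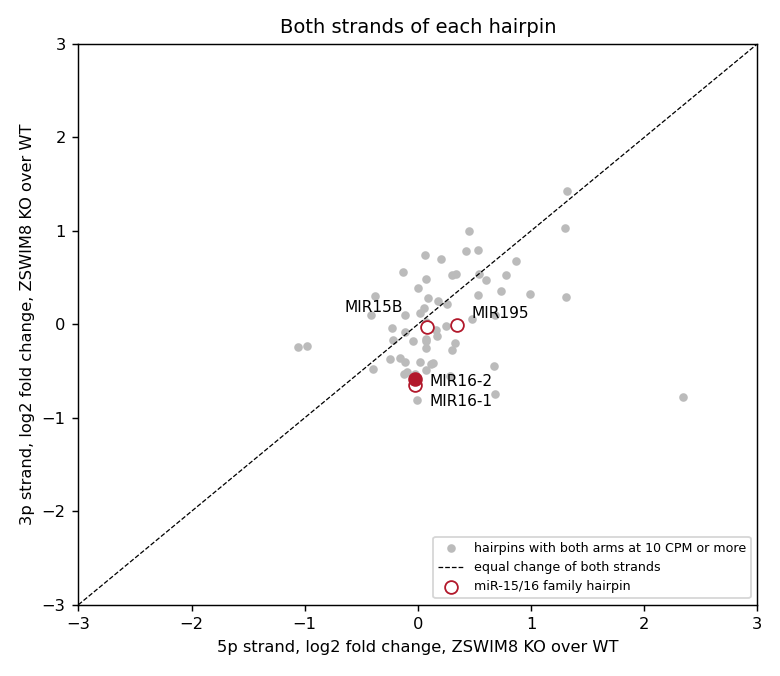
Log2 fold change of the 3p strand against that of the 5p strand in ZSWIM8 KO over WT for 64 hairpins with both strands at 10 CPM or more (grey), with the 4 family hairpins in red, filled where the arm difference has an adjusted p under 0.05. The dashed line marks equal change; MIR16-2 lies below it by 0.56, MIR15B lies near it, and MIR16-1, whose 3p strand is under 10 CPM, is shown beside MIR16-2.

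Of the 36 pairs of family strands tested in ZSWIM8 KO over WT, 2 passed, and both involve miR-16-2-3p, which is in 8 of the 36. These 8 pairs all reuse its 1 fold change, so they are not separate evidence. miR-16-2-3p changed by -0.67 ± 0.19 relative to miR-15b-5p and by -0.56 ± 0.17 relative to miR-16-5p (normal test, adjusted p = 0.0171 for each). The latter is the arm difference given above, adjusted over other tests. Against miR-15b-3p, the other strand made beside it on chromosome 3, the difference was -0.56 ± 0.20 and missed the threshold (adjusted p = 0.0592, normal test). In sgCYRANO over sgNT 0 of 36 pairs passed by the normal test, the smallest adjusted p was 0.945, and 0 had an unadjusted p under 0.05.

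The change of miR-16-2-3p also differed between the comparisons, which share no library. Its log2 fold change in ZSWIM8 KO minus that in sgCYRANO was -0.70 ± 0.16 (normal test, adjusted p = 0.000232 over 294 microRNAs at 10 CPM or more in both tables). It was 1 of 5 members tested, and over all 294 microRNAs 19.7% passed, 7.82% with the lower and 11.9% with the higher change in ZSWIM8 KO. The same difference was 0.033 ± 0.15 for miR-16-5p (adjusted p = 0.896), 0.20 ± 0.19 for miR-15b-5p (adjusted p = 0.49997), 0.086 ± 0.36 for miR-15a-5p (adjusted p = 0.896) and 0.46 ± 0.51 for miR-195-5p (adjusted p = 0.573), all by the normal test. miR-497-5p was below 10 CPM and was not tested in this way.

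Further strands were taken from lists of partner strands and of microRNAs with a like seed. Of 5 partner strands 3 were measured, and by the deposited edgeR tests 0 were called higher and 0 lower in either comparison, with 0 unadjusted p-values under 0.05. Of all microRNAs tested, 0.119% passed in sgCYRANO over sgNT and 9.91% in ZSWIM8 KO over WT. A count of 0 in 3 strands is near these shares and does not show that the partner strands were stable. Of 6 like-seed microRNAs 2 were measured, both from the X chromosome cluster. miR-503-5p, whose seed AGCAGCG differs from that of the family in its last base, had 93.4 CPM in ZSWIM8 KO and 52.8 CPM in WT. It rose by 0.82 ± 0.23 in the authors' deposited table (adjusted p = 0.00524), beside the 9.91% of all microRNAs that passed. This call, too, ended with 4 denominator degrees of freedom (adjusted p = 0.336). miR-424-5p, with the family seed, had 59.3 CPM in ZSWIM8 KO and 48.0 CPM in WT, and the authors' deposited table gave 0.31 ± 0.25 (adjusted p = 0.563). In sgCYRANO over sgNT the authors' deposited table gave -0.38 ± 0.17 for miR-503-5p (adjusted p = 0.816) and -0.0035 ± 0.17 for miR-424-5p (adjusted p = 0.996).

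The microRNAs whose pair of fold changes lay nearest to that of miR-16-5p were named by their Euclidean distance over both comparisons, among 131 others at 100 CPM or more in both tables. They were miR-32-5p at a distance of 0.033, miR-132-3p at 0.034 and miR-106b-3p at 0.059 on the log2 scale. In the authors' deposited tables miR-32-5p had -0.084 ± 0.10 in sgCYRANO over sgNT and -0.0048 ± 0.12 in ZSWIM8 KO over WT. These distances are smaller than the standard errors of the values they compare.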

How the data were processed

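Small RNA of K562 cells was sequenced in 12 libraries, 3 a group, described by the labels as biological triplicates. Per the labels' protocols, a miRNeasy kit gave the RNA and a NEBNext kit for small RNA the libraries. Tools named by the submitters' processing notes are bcl2fastq, FastQC 0.11.2, STAR, featureCounts, edgeR and hg19, without roles; no source used here says how reads shared by several microRNAs were counted. Per the file headers, the authors deposited for each microRNA a log2 fold change, a mean log2 CPM, an F statistic (a score), a p-value and an adjusted p-value. No library values were given, so counts were not tested anew. The design had also provided for counts.

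Group means in CPM were solved from the mean log2 CPM (prior count 2) and the log2 fold change (prior count 0.125), and summed to 1000000 in each group. The deposited adjusted p-values matched a Benjamini-Hochberg adjustment of every row to within 1.09e-06. Library totals came from the steps that 1 read makes in means of up to 1 CPM, which accounted for 227 of 227 means in sgCYRANO, 220 of 220 in sgNT, 208 of 208 in ZSWIM8 KO and 241 of 241 in WT within 0.0015 CPM. The standard error was the deposited log2 fold change divided by the normal deviate that its p-value implies. Differences between comparisons, between arms and between family strands used these errors with a normal reference, two-sided, and Benjamini-Hochberg adjustment, and leave out any covariance. Arms were paired by RefSeq, which matched 865 of 952 names, and by name for 7 hairpins. Procedures were tested on simulated data. Locations come from RefSeq (GRCh38.p14) and GENCODE 29; the deposited tables carry no coordinates. Named strands were all members, their partner strands, like-seed microRNAs and the 3 with fold changes nearest to those of the most abundant member. Members and lists were chosen with earlier results of these data known. Python 3.11.15 and scipy 1.17.1 were used. Alternatives were other centring of the fold changes, an abundance minimum, other errors and degrees of freedom, and no prior count.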

Additional observations from a re-analysis of the deposited data

Results flagged for a closer look

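The log2 fold change of miR-16-2-3p in ZSWIM8 KO over WT minus that in sgCYRANO over sgNT was -0.70, and a normal test of that difference passed the threshold. It was 1 of 5 members tested, beside 19.7% of all microRNAs tested, which is near the same share, and miR-497-5p was not tested. Its own changes were -0.58 in ZSWIM8 KO over WT and 0.12 in sgCYRANO over sgNT in the authors' deposited tables.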

How the results depend on the processing

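Of 124 values recomputed under an alternative, 114 kept their direction and their side of the threshold, or stayed within the set margin. That margin was wide for counts of calls. In ZSWIM8 KO over WT it took in 30 and 28 called higher, centred on the median and on the trimmed mean, against 41. It also took in 62 and 63 called lower under these settings, against 45. An abundance minimum, other errors and other degrees of freedom left each fold change or difference as it was and could move only adjusted p-values and counts of calls. That part of the agreement was therefore fixed in advance. Leaving out the prior count could move a group mean only slightly, so the group means among these values add little. The fall of miR-16-2-3p in ZSWIM8 KO over WT ranged from -0.73 to -0.58, and with 4 denominator degrees of freedom it kept its value of -0.58 but was no longer called (adjusted p = 0.227). Under that reading 1 microRNA was called higher and 2 lower in ZSWIM8 KO over WT, against 41 and 45 as deposited, and the call of miR-503-5p ended as well. With microRNAs under 10 CPM left out 62 were called higher. miR-15b-5p in ZSWIM8 KO over WT turned to -0.044 when centred on the median and to -0.064 when centred on the trimmed mean. With both comparisons centred, the difference between them turned to -0.065 for miR-15a-5p and -0.12 for miR-16-5p. Arm differences called in sgCYRANO over sgNT were 2 with errors taken from F, and 2 with both arms at 10 CPM or more, against 1. As first run and under other errors or an abundance minimum, the arm difference of MIR16-2 in ZSWIM8 KO over WT had adjusted p-values between 0.00677 and 0.0204 (normal test). Differences between arms, family strands or comparisons were not recomputed with 4 denominator degrees of freedom, the setting that ended the call of miR-16-2-3p. The cause of these shifts was not tested. No paired analysis was possible because the tables hold comparisons and no libraries; for the same reason no replicate could be left out, and DESeq2 or another count test could not be run. Depth limits the strands under about 20 CPM.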

Other observations

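MIR16-2 was 1 of 64 hairpins with both strands at 10 CPM or more in ZSWIM8 KO over WT. The scarcer strand of a hairpin was the one with the lower mean over both groups of the same comparison, so a fall itself favours that label. In 44 of these hairpins the scarcer strand had the lower log2 fold change of the pair, with a median of -0.20 for the scarcer minus the more abundant strand. In sgCYRANO over sgNT this was so in 32 of 62 hairpins, with a median of -0.0085. Adjusted over these 64 hairpins, 12 arm differences were called in ZSWIM8 KO over WT, and in 8 of them the scarcer strand had the lower change. Adjusted over all 193 hairpins with both strands in the table, 10 were called, and in 6 of them the scarcer strand had the lower change. Among these 10 was MIR32, chosen after its values were seen: its 5p strand had the pair of fold changes nearest to that of miR-16-5p, and miR-32-5p minus miR-32-3p was 0.80 ± 0.25 on the log2 scale (normal test, adjusted p = 0.0224).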
